A study of Mus musculus with 3 samples.

Results

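Ifi27l2a, Ifitm1, Ifitm2, Ifitm3 and Ifitm6 are 5 interferon-induced genes of the mouse, and all 5 were present in each of the 3 RNA matrices, which together listed 19039 genes. They had been picked because their levels differed between samples and cell clusters of these same data, so their levels are described here and nothing is tested on them. The cells came from the brain and blood of mice in a study of microglia depletion around brain metastases, and were profiled with CITE-seq, a droplet method that reads the RNA of a cell together with antibody tags for surface proteins. The 3 deposited samples were the RNA, antibody and hashtag libraries of 1 droplet pool, in which 35 antibodies marked surface proteins and 8 hashtags marked the sample of origin.

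All mice were females of 2 to 3 months on the C57Bl/6 background, and all carried Cx3cr1CreERT, a Cre recombinase that tamoxifen switches on in cells using Cx3cr1, whose product is the fractalkine receptor of microglia and monocytes. The mice labelled depleted also carried ROSA-iDTR, which gives recombined cells a receptor for diphtheria toxin. Mice of both labels received tamoxifen, a pause of a month and then diphtheria toxin. Metastases were seeded about 2 weeks earlier by carotid artery injection of E0771 cells, a mammary carcinoma line of the mouse. A brain sample was 1 hemisphere. Percoll was used to enrich immune cells from brain, and per the submitters remnant microglia were present after depletion.

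Interferons are secreted proteins that signal through their receptors, the JAK kinases and transcription factors to switch on a broad set of antiviral genes, many of which carry an interferon-stimulated response element near their start. The IFITM proteins sit in cell and endosome membranes and hinder the entry of many viruses. Ifitm3 is the best studied of them, Ifitm1 and Ifitm2 are close relatives, and Ifitm6 is a further member of the family found in mice. Ifi27l2a encodes a small hydrophobic protein and is a widely used marker of a type I interferon response in mouse microglia and leukocytes.

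In RefSeq's GRCm38.p6, 4 of the 5 genes lie together on chromosome 7: Ifitm2 at chr7:140954837-140959686, Ifitm1 at chr7:140967429-140969827, Ifitm3 at chr7:141009590-141010744 and Ifitm6 at chr7:141015812-141016892, a span of 62.1 kb with 6 annotated genes. Ifi27l2a lies on chromosome 12 at chr12:103433873-103443680. Its annotated span contains that of Ifi27 (chr12:103434189-103440245), so reads of these overlapping genes may have been split between them. The Ifitm genes are similar in sequence, and the split of reads among them by 3' counting is likewise uncertain.

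The stretches below show the interferon-related motifs found near the start of the Ifitm genes, since the members are named for their response to interferon. Windows of 300 bases around annotated starts were searched on both strands for GAAA followed by NN and again GAAA (N is any base), a form of the interferon-stimulated response element, and for TTCNNNGAA, the gamma-activated site. Each stretch has 30 bases on the minus strand, and capitals mark the match.
Ifitm2 response element, chr7:140955988-140956017: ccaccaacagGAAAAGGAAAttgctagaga
Ifitm3 response element, first, chr7:141010723-141010752: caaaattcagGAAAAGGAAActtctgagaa
Ifitm3 response element, next, chr7:141010706-141010735: aaacttctgaGAAACCGAAActgccgcaga
Ifitm3 gamma-activated site, chr7:141010712-141010741: aaaaggaaacTTCTGAGAAaccgaaactgc
Ifitm6 gamma-activated site, chr7:141016883-141016912: ccatatgaacTTCCTTGAAacaagagcttc

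The response element of Ifitm2 began at base -46 from the annotated start, and those of Ifitm3 at bases 3 and 20. The gamma-activated site of Ifitm3 began at base 14, after the first of its response elements, and overlapped the next, and that of Ifitm6 began at base -10. Neither motif was matched in the window of Ifitm1, and the Ifi27l2a promoter was not analysed here. The windows of Ifitm1 (chr7:140967826-140968125) and Ifitm2 (chr7:140955912-140956211) lay around starts inside the gene spans given above. The outer ends of those 2 spans were not searched. The response element was matched in 1131 of 32851 promoter windows (3.44%) and in 20 of the 38 windows of the other interferon-response genes. TTCNNNGAA was matched in 2726 windows (8.30%) and in 6 of those 38. A match is a stretch of letters and not a measured binding site.

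From naive brain 785 cells carried the control label and 1868 the depleted one, and from the blood of mice with metastases 1371 and 1553. The brain with metastases held 5933 cells that formed 1 pooled sample here, because its cells could not be assigned to the arms. Per cell, the median of raw UMIs (captured RNA molecules) was 8621 and 10119.5 for naive brain, and 4571 and 5885 for blood, with the control label first. Levels are given as UMIs per 10000 corrected UMIs of all cells of a cluster (CP10k). Each captured UMI marks 1 transcript end, so gene length does not enter. The UMIs counted here are corrected for depth and can exceed those captured: blood neutrophils had medians of 4500 corrected and 3016 raw UMIs. A cell said to hold a UMI of a gene holds a corrected one. Each tissue had 1 sample per label, so no spread between mice was measured and no test was made. The 95% intervals are exact Poisson intervals for levels and ratios and Clopper-Pearson intervals for shares of cells. They treat corrected UMIs as if these were counted molecules, and all cover counting error only. A ratio was taken as log2 with 0.1 CP10k added to both sides, for genes reaching 0.5 CP10k on either side, and 2 fold is the threshold at which genes are counted.

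The level of Cx3cr1 opposed the labels. Naive brain microglia held 10.0 CP10k under the depleted label against 1.72 CP10k under the control label, and 686 of 1868 cells labelled depleted but 134 of 785 labelled control lay in the microglia cluster. Directions below therefore refer to the labels alone. Droplet barcodes also recurred between matrices: 518 between the naive brain and the brain with metastases, 339 between the naive brain and the blood, and 578 between the brain with metastases and the blood. Such shared barcodes made up 82.7% of blood cluster 2 and 62.2% of the classical monocyte cluster of the naive brain, but 7.66% of blood neutrophils and 7.89% of blood classical monocytes. Values without them are given beside the differences that they bring past 2 fold or below it.

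The authors' clusters were named from marker lists. Cluster 0 of the naive brain held all 10 microglia markers, though Igkc, Ighm, Jchain and Prss34, genes of plasma cells and basophils, also led it. Cluster 2 of the blood (C1qc, C1qa) and cluster 2 of the naive brain (Mgp, Tagln) mixed markers of several types and are called by their leading genes, as is cluster 5 of the blood (Gzma, Nkg7). Krt8+ cells with tumour markers formed cluster 6 in both tissues, also in the naive brain, where 72.1% of them were shared barcodes.

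By cluster, Ifi27l2a was highest in classical monocytes of both tissues. The naive brain cluster of that name was led by Cxcl9, Fabp5, Ms4a4c and Cd209a. In the naive brain it reached 18.4 CP10k in classical monocytes, 10.0 CP10k in T cells and 9.23 CP10k in microglia. Nonclassical monocytes, the patrolling Ly6C-low form, had 2.93 CP10k, natural killer (NK) cells 2.16 CP10k, endothelial cells 0.82 CP10k and Krt8+ cells 0.76 CP10k. The last 2 levels did not differ beyond their counting intervals, of 0.571 to 1.14 and 0.610 to 0.928 CP10k. By the authors' surface gates, set on antibody tags, classical monocytes of the naive brain did not stand out. Ly6C-high cells had 12.1 CP10k, CD4+ cells 12.9 CP10k and CD8+ cells 12.7 CP10k, with overlapping intervals. In the blood the order was classical monocytes at 21.1 CP10k, the C1qc+ cluster at 14.6 CP10k, neutrophils at 8.70 CP10k and the Gzma+ cluster at 8.04 CP10k, the last 2 with overlapping intervals. B cells followed at 5.88 CP10k and nonclassical monocytes at 5.79 CP10k, which did not differ beyond their intervals, and Krt8+ cells had 0.57 CP10k.

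Ifitm3 was also highest in classical monocytes, at 32 CP10k in the naive brain and 43.6 CP10k in the blood, where 100% of the 355 cells held at least 1 UMI. Unlike Ifi27l2a, it was present at 11.7 CP10k in Krt8+ cells and 16.1 CP10k in endothelial cells of the naive brain. It was low in lymphocytes, with 1.47 CP10k in T cells and 1.63 CP10k in NK cells of the naive brain and 2.70 CP10k in B cells of the blood. T cells and NK cells of the naive brain did not differ in it beyond counting error.

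Ifitm1 was mainly a neutrophil transcript in these tissues. It had 40.6 CP10k in blood neutrophils and 17.5 CP10k in naive brain neutrophils, and between 0.05 and 5.45 CP10k in the other 6 blood clusters of at least 30 cells. Ifitm2 was shared by neutrophils and monocytes. It had 46.7 CP10k in blood neutrophils, 17 CP10k in blood classical monocytes and 13.8 CP10k in blood nonclassical monocytes, and 19.1, 12.2 and 15.3 CP10k in the same 3 classes of the naive brain. Endothelial cells of the naive brain also had 13.2 CP10k of Ifitm2.

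Ifitm6 was found mainly in myeloid clusters. It had 14.8 CP10k in naive brain neutrophils and 8.89 CP10k in blood classical monocytes, 3.85 CP10k in blood nonclassical monocytes and 3.6 CP10k in blood neutrophils. T cells, NK cells, Krt8+ cells and endothelial cells of the naive brain lay between 0.04 and 0.07 CP10k.

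**Figure D1:**
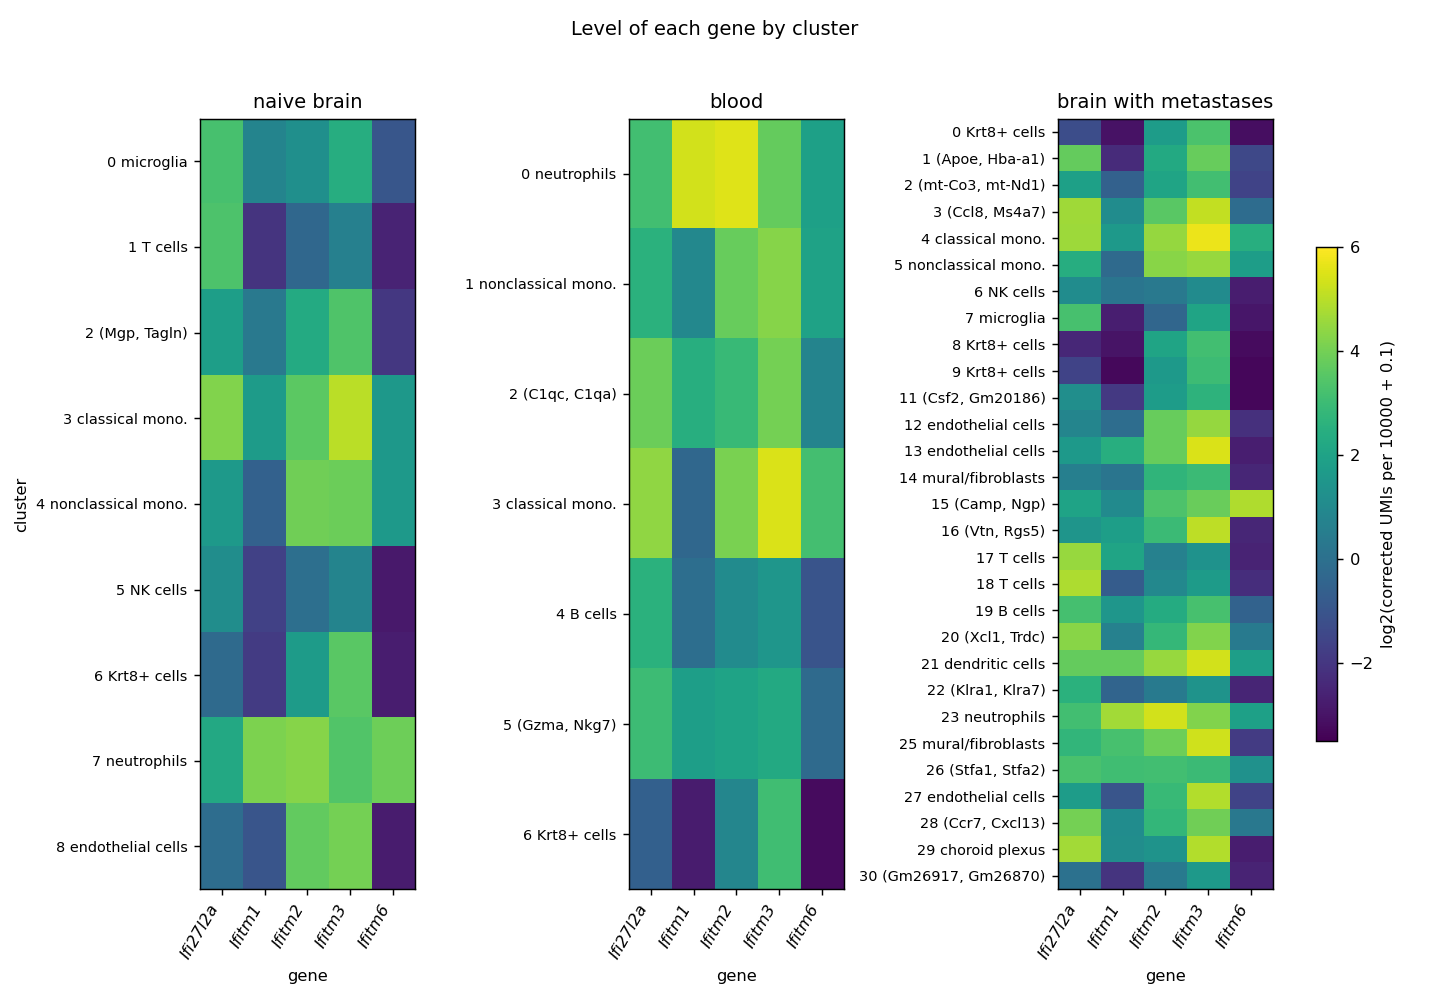
Level of each gene, as log2 of CP10k plus 0.1, in every cluster of at least 30 cells (rows) of the naive brain, the blood and the brain with metastases; each row pools all cells of a cluster, and the 3 matrices were normalized separately. Ifitm1 and Ifitm2 are brightest in neutrophils (40.6 and 46.7 CP10k in the blood) and Ifitm3 in classical monocytes (43.6 CP10k in the blood).

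The 31 clusters made here for the brain with metastases, clustered without the members and the interferon lists, showed the same genes in further cell types. Tumour-like Krt8+ clusters 0, 8 and 9 had 0.32, 0.08 and 0.23 CP10k of Ifi27l2a beside 9.86, 8.70 and 8.0 CP10k of Ifitm3. Ifi27l2a was high outside the myeloid cells too, at 25.8 CP10k in choroid plexus-like cells and at 22.8 and 28.4 CP10k in the T cell clusters led by Cd8b1 and by Tnfrsf4 and Il17a. A macrophage-rich cluster led by Ccl8 and Ms4a7 had 24.7 CP10k of Ifi27l2a and 35.1 CP10k of Ifitm3.

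Ifitm3 reached 53.1 CP10k in classical monocytes of the brain with metastases and 40.0 CP10k in fibroblast-like cells led by Dcn. Among the endothelial clusters it had 44 CP10k where Ackr1 and Vwf, genes of venules, led, against 22.3 and 29.7 CP10k in the others. The Ackr1+ cluster also had 5.33 CP10k of Ifitm1, against 0.82 and 0.40 CP10k. Dendritic cells led by Cd209a had 13.4 CP10k of Ifitm1 and 23 CP10k of Ifitm2, and shared the high Ifitm3 at 40.2 CP10k.

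Within the 29 cluster-by-arm units of the naive brain and blood, each tissue centred on its own mean, the members ranged from closely parallel to nearly unrelated. Ifitm2 and Ifitm3 had a Pearson correlation of 0.80, Ifitm2 and Ifitm6 0.80, and Ifi27l2a and Ifitm3 0.23. The genes most like each member were taken from 4352 genes. For Ifi27l2a they were Evi2a (0.87), Slfn8 (0.85), Cmtm7 (0.84), Sla (0.82) and Tmem219 (0.82), of which Slfn8 belongs to the interferon-response list. For Ifitm1 they were S100a8, S100a9, Cxcr2, Csf3r and Il1r2 (0.95 to 0.96), markers of neutrophils.

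The nearest genes to Ifitm2 were Tnfaip2, Tnfrsf1a, Myadm, Xdh and Tpd52 (0.90 to 0.93), and those to Ifitm3 were Atp6v0d1, Atp6v1a, Atox1, 5031439G07Rik and Ralb (0.81 to 0.87). Atp6v0d1 and Atp6v1a are subunits of the proton pump that acidifies endosomes. Those nearest to Ifitm6 were Mcemp1, Plbd1, Pirb, Hp and Prdx5 (0.95 to 0.97). Units of 1 tissue share a library and a normalization, and these correlations describe 29 units without a test.

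In single cells Ifi27l2a and Ifitm3 went together within several clusters. Their Spearman correlation across cells was 0.44 in naive brain microglia, 0.52 in naive brain classical monocytes and 0.47 in blood classical monocytes, which share depth and capture and are given as a description. For Ifi27l2a and Ifitm1 in blood neutrophils it was -0.01.

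Microglia with an Ifi27l2a UMI also held more of the 39 other interferon-response genes. In the naive brain their summed level was 34.8 CP10k in the 111 microglia with Ifi27l2a and 12.8 CP10k in the 23 without, in the sample labelled control. In the sample labelled depleted it was 30.4 and 13.9 CP10k. Median raw UMIs of those control cells were 14728 and 12575, so depth moved with this split, and its part in the difference was not tested. In blood cluster 2 the same sums were 63.2 against 23.5 CP10k and 66.7 against 16.3 CP10k, control first. Depth moved with the split there too, with median raw UMIs of 21249 against 13723.5 and 26218 against 16027, and its part was not tested.

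Few tumour-like cells carried Ifi27l2a, and those that did held more of the interferon-response genes. In cluster 0 of the brain with metastases the sum was 83.2 CP10k in the 40 cells with a UMI and 30.4 CP10k in the 335 without. In cluster 9 it was 85.9 and 20.7 CP10k, and in cluster 8, with 21 such cells, 35.7 and 19.0 CP10k. Raw depth was not available for these cells and doublets were not called, so the part of either was not tested. The split was weaker in blood neutrophils, at 35.8 against 27.3 CP10k in the sample labelled control. It was not seen in naive brain NK cells labelled depleted, at 29.6 against 29.5 CP10k.

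The first comparison between arms was made in the blood of mice with metastases. Of 32 member-by-cluster levels that could be compared, 4 were at least 2 fold lower in the sample labelled depleted, and no other reached 2 fold. They were Ifi27l2a in neutrophils, nonclassical monocytes and classical monocytes, and Ifitm1 in nonclassical monocytes. Among all genes compared, 0.561% of neutrophil genes, 1.54% of nonclassical monocyte genes and 0.691% of classical monocyte genes were lower by that much, as were 0.669%, 0.541%, 0.216% and 0.514% in clusters 2, 4, 5 and 6. The members had been chosen with these contrasts in view, so the counts carry no further weight.

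Under the depleted label, blood neutrophils had 2.56 CP10k of Ifi27l2a (2.34 to 2.80), and under the control label 13.6 CP10k (13.1 to 14), which gave a log2 ratio of -2.36. In nonclassical monocytes it had 3.18 CP10k (2.93 to 3.44) and 16.1 CP10k (14.9 to 17.2), a log2 ratio of -2.30. In classical monocytes it had 11.5 CP10k (10.9 to 12.1) and 32.7 CP10k (31.6 to 33.9), a log2 ratio of -1.50. The intervals of the 2 samples did not overlap in any of these clusters. Without shared barcodes the log2 ratios were -2.47, -2.54 and -1.53.

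B cells lay just under the threshold, with 3.70 and 7.46 CP10k of Ifi27l2a and a log2 ratio of -0.99. The Gzma+ cluster had 6.71 and 9.45 CP10k. In cluster 2, where most barcodes were shared with another matrix, Ifi27l2a had 13.7 CP10k under the depleted label and 15.6 CP10k under the control label, and without the shared barcodes 15.2 and 13.4 CP10k. Krt8+ cells had 0.645 and 0.490 CP10k, with overlapping intervals, and 12.9% and 12.6% of them held a UMI. Their median was 160798 raw UMIs, against 3016 in neutrophils, and 83.9% of them were shared barcodes. No cell type was shown to lack the gene, so the share of cells that free RNA alone would give was not measured.

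The difference lay both in how many cells held Ifi27l2a and in how much each held. A corrected UMI was found in 45.7% (40.9 to 50.5) of 429 neutrophils labelled depleted and 66.9% (62.7 to 70.8) of 537 labelled control. Neutrophils with a UMI had fewer raw UMIs than those without, with medians of 2120.5 against 3382 labelled depleted and 2964 against 3275 labelled control. The part of the depth correction was not tested. The shares were 53.9% and 87.4% in nonclassical monocytes and 81.5% and 96.9% in classical monocytes. After every cell was thinned to 2000 corrected UMIs, they were 28.4% and 54.2%, 34.7% and 69.5%, and 66.7% and 95%.

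Cells with many Ifi27l2a UMIs were mostly in the sample labelled control. At least 10 UMIs were found in 2.80% of neutrophils labelled depleted and 21.4% labelled control, in 3.89% and 30.5% of nonclassical monocytes, and in 25.1% and 80.0% of classical monocytes. The highest neutrophil had 20 UMIs in the sample labelled depleted and 82 in the sample labelled control. In classical monocytes the median cell had 8.29 and 29.8 CP10k, so the whole distribution differed there, whereas the median neutrophil had 0 and 4.45 CP10k. In cluster 2 the samples were close, with at least 10 UMIs in 29.5% and 38.9% of cells and 20 or more in 13.2% of both.

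**Figure D2:**
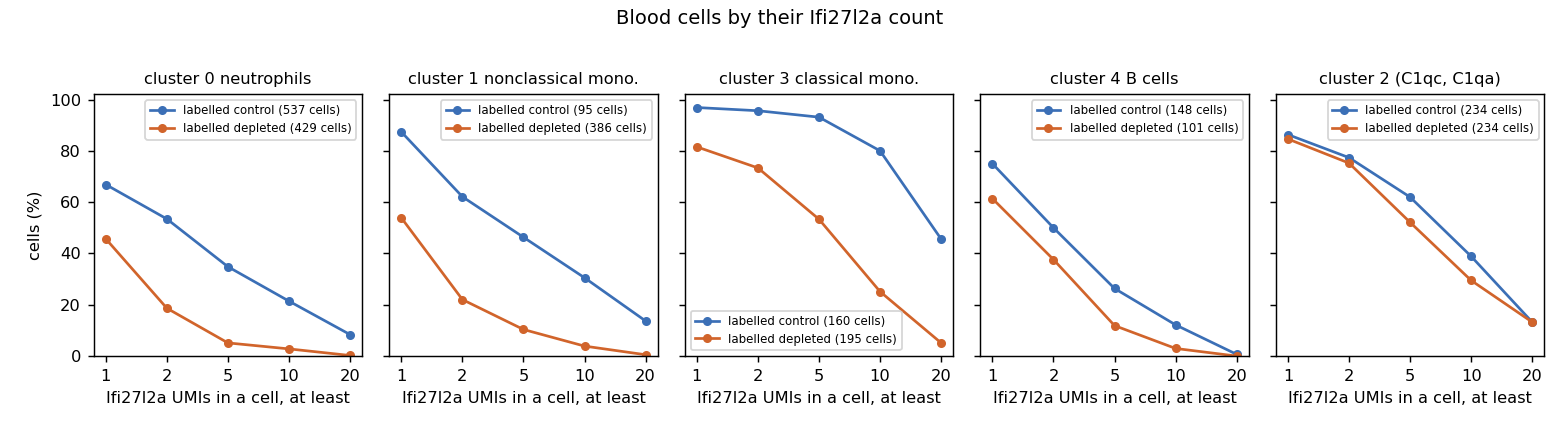
Percentage of cells (vertical axis) with at least 1, 2, 5, 10 or 20 Ifi27l2a UMIs (horizontal axis) in 5 blood clusters, for the samples labelled control (blue) and depleted (orange). The lines are well apart in classical monocytes (80.0% and 25.1% at 10 UMIs) and close in cluster 2 (38.9% and 29.5%).

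Cells grouped by the authors' surface gates, which use antibody tags and not RNA, gave the same direction for Ifi27l2a in each gate of at least 30 cells per sample. It had 2.52 and 13 CP10k in Ly6C+Ly6G+ cells, the gate of neutrophils, 10.3 and 34.4 CP10k in Ly6C-high cells and 5.31 and 21.3 CP10k in Ly6C-low cells, depleted first. CD8+ cells had 6.02 and 13.6 CP10k, NK1.1+ cells 8.71 and 13.8 CP10k and B220+ cells 6.6 and 9.31 CP10k. The gap was smallest in cells gated only as CD3+, at 13.5 and 16.3 CP10k, and in cells without a gate, at 5.66 and 6.89 CP10k. Barcodes shared between matrices made up 85.9% of NK1.1+, 65% of CD8+ and 64.6% of CD3+ cells. They made up 29.8% of B220+ cells, 12.3% of Ly6C-low cells and 9.79% of Ly6C-high cells. Their part in these gaps was not tested. NK1.1+ cells also held 15.8 and 20.8 CP10k of Ifitm3, against 1.63 CP10k in the naive brain NK cluster. The lymphoid gates are therefore not read here as T cells or NK cells.

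In blood neutrophils and monocytes the Ifitm genes, apart from Ifitm1 in nonclassical monocytes, were less than 2 fold apart. Ifitm3 had 10.3 and 15.9 CP10k in neutrophils (log2 ratio -0.63), 16.4 and 29.8 CP10k in nonclassical monocytes (-0.86) and 38.0 and 50.3 CP10k in classical monocytes (-0.40), lower in the sample labelled depleted each time. Without shared barcodes, nonclassical monocytes had 16.7 and 34.2 CP10k of Ifitm3 and passed 2 fold at -1.03. Ifitm2 had 41.8 and 50.7 CP10k in neutrophils and 15.1 and 19.3 CP10k in classical monocytes. Ifitm6 was close in both, at 3.73 and 3.49 CP10k in neutrophils and 8.52 and 9.34 CP10k in classical monocytes.

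The Gzma+ cluster, with 49.0% shared barcodes, gave other values once these were left out. It had 2.90 and 5.10 CP10k of Ifitm2 and 3.39 and 6.17 CP10k of Ifitm3 with all cells, depleted first. Without shared barcodes, in 51 and 54 cells, Ifitm2 had 0.866 and 3.06 CP10k (-1.71), Ifitm3 1.23 and 4.27 CP10k (-1.72) and Ifitm6 0.180 and 0.643 CP10k (-1.41), past 2 fold. Ifi27l2a had 4.04 and 6.20 CP10k there (-0.61), so in those cells the Ifitm genes and not Ifi27l2a passed. In the CD8+ gate, 40 cells under each label with shared barcodes kept, Ifitm3 had 5.55 and 12.2 CP10k. Shared barcodes made up 52.5% and 77.5% of those cells, so this is a different set from the one above.

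Ifitm1 in blood neutrophils, where it was most abundant, had 38.0 CP10k under the depleted label and 42.6 CP10k under the control label. Its 2 fold difference in nonclassical monocytes rested on low levels, 1.44 and 3.21 CP10k. Neutrophil genes moved with it: the 9 neutrophil markers summed to 35.5 and 108 CP10k in those cells, with Ly6g at 0 under the depleted label, and their part in the difference was not tested. In nonclassical monocytes with an Ifitm1 UMI those markers summed to 129 and 297 CP10k, and in those without one to 7.36 and 3.24 CP10k. Without shared barcodes Ifitm1 had 0.962 and 1.79 CP10k in nonclassical monocytes (-0.83), under 2 fold. In the Ly6C-low gate it had 2.07 and 1.98 CP10k, a log2 ratio of 0.062.

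**Figure D3:**
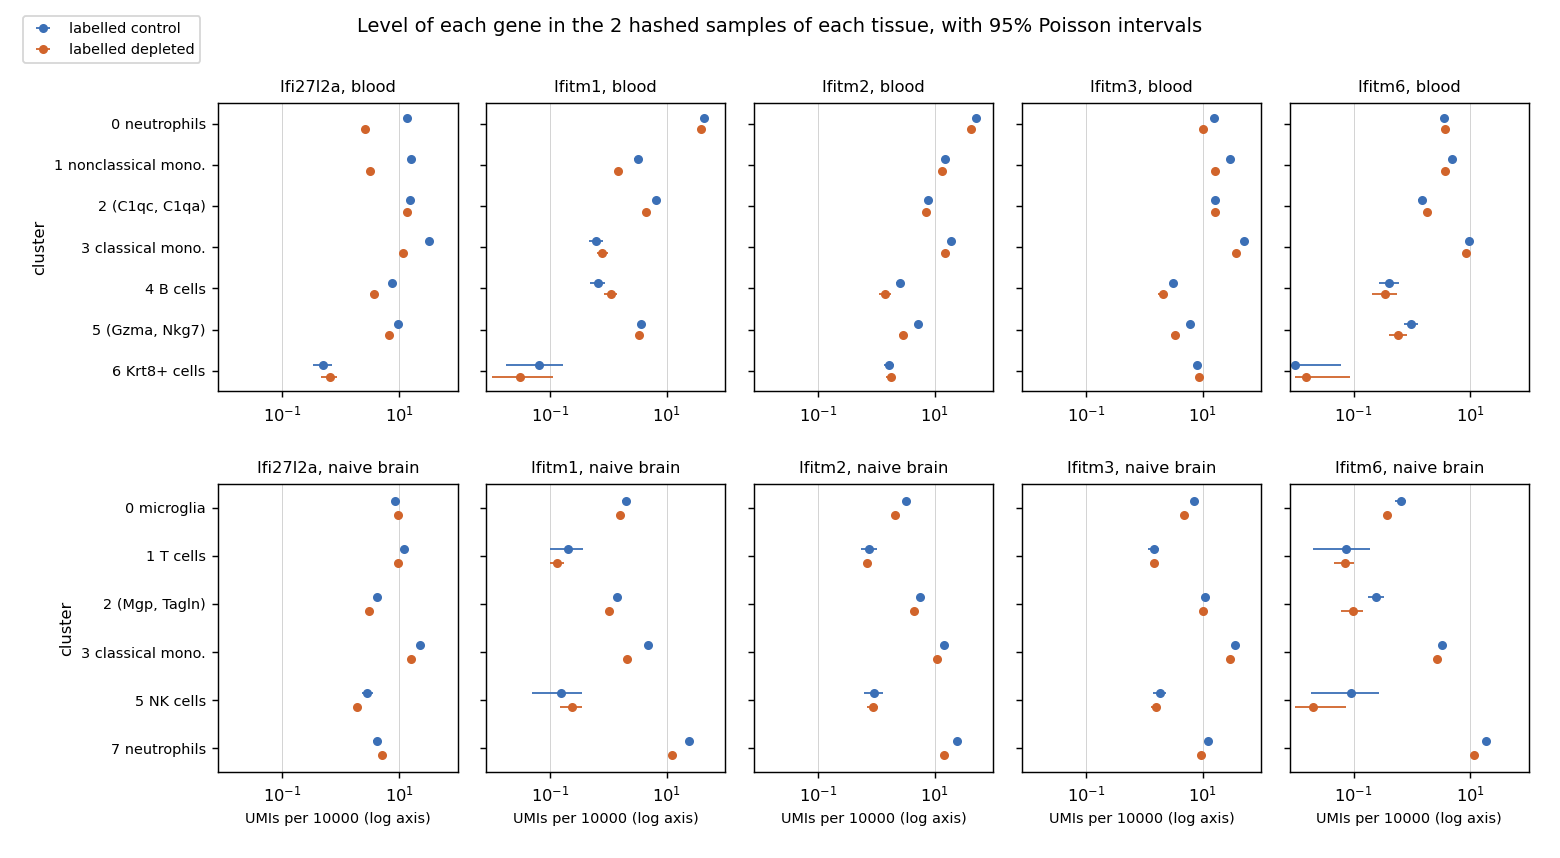
Level of each gene (CP10k, log axis) in the samples labelled control (blue) and depleted (orange), by cluster, in the blood (top) and the naive brain (bottom); bars are 95% Poisson intervals, and a level of 0 is drawn at the left edge. The Ifi27l2a points are far apart in blood neutrophils (13.6 and 2.56 CP10k) and close in naive brain microglia (8.50 and 9.37 CP10k).

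In the same 3 clusters the other interferon-response genes had medians below 0. Some of them were lower by 2 fold under the depleted label, beside 0.561%, 1.54% and 0.691% of all genes in neutrophils, nonclassical and classical monocytes. In neutrophils 8 of 22 measured genes of the list were lower by 2 fold and the median log2 ratio was -0.83, against 0.03 over all 2316 genes. In nonclassical monocytes 8 of 17 were lower by 2 fold (median -0.81, all genes 0.06), and in classical monocytes 13 of 26 (median -0.98, all genes -0.06). The count was 2 of 13 in B cells (median -0.53) and 0 in the Gzma+ cluster and cluster 2, with medians of -0.08 over 25 genes and 0.02 over 33. Krt8+ cells, which held little Ifi27l2a, also had 3 of 12 list genes lower by 2 fold and a median of -0.66. The list had been drawn up with earlier results of these data known.

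The 4 list genes most abundant in the blood were Bst2, which tethers virus particles to the cell, Isg15, a ubiquitin-like modifier, Sp100, a nuclear body protein, and Trim30a, a TRIM family protein. Isg15 had 0.456 and 1.53 CP10k in classical monocytes, 0.389 and 1.02 CP10k in nonclassical monocytes and 1.05 and 1.63 CP10k in neutrophils. Trim30a had 0.929 and 2.01 CP10k in classical monocytes. Bst2 had 1.69 and 2.98 CP10k there but 1.15 and 1.09 CP10k in neutrophils, so it was not lower in each cluster.

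Genes of the receptors and of signalling did not show the difference seen in Ifi27l2a. None was lower by 2 fold in the blood, and their medians were -0.06 over 8 genes in neutrophils, -0.02 over 9 in nonclassical monocytes and -0.13 over 10 in classical monocytes. Ifngr1, a receptor chain for interferon gamma, had 2.45 and 2.59 CP10k in neutrophils, and Jak1 had 3.43 and 3.56 CP10k.

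Genes induced mainly by interferon gamma had medians of 0.08 over 3 genes in neutrophils and -0.13 over 6 in classical monocytes. Of the interferons in the list, Ifng and Ifnb1 were found in the blood matrix, at 0.0979 and 0.0305 CP10k over all cells. Ifi27, the paralogue whose annotated span lies inside that of Ifi27l2a, had 0.633 and 0.970 CP10k in neutrophils and 0.394 and 0.573 CP10k in nonclassical monocytes, less than 2 fold apart.

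In the naive brain, by the authors' clusters, most member levels were less than 2 fold apart between the labels. Of 25 levels compared 1 was at least 2 fold lower under the depleted label and no other reached 2 fold. It was Ifitm1 in classical monocytes, at 2.08 CP10k under the depleted label and 4.81 CP10k under the control label (log2 ratio -1.17). Among all genes, 0.977%, 0.675%, 1.64%, 1.35%, 1.35% and 1.62% were that much lower in clusters 0, 1, 2, 3, 5 and 7, with the classical monocytes being cluster 3. Neutrophil markers moved with it, summing to 24.5 and 66.3 CP10k with none of the 9 at 0, and their part was not tested. Without shared barcodes the log2 ratio was -1.50, and in the Ly6C-high gate it was -0.73. Ifitm1 in the Mgp+ cluster had 0.536 and 1.20 CP10k without shared barcodes and then passed 2 fold, at -1.03.

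Surface gates gave more differences in the naive brain than clusters did, 7 past 2 fold in gated cells, all lower under the depleted label. B220+ cells had 4.97 and 11.7 CP10k of Ifi27l2a, 1.30 and 4.0 CP10k of Ifitm1 and 7.84 and 16.4 CP10k of Ifitm3, in 68 and 41 cells. B220 is a surface protein of B cells, but no cluster of the naive brain was named B cells. Shared barcodes made up 41.2% and 65.9% of the gate, and their part in these differences was not tested. Ly6C-low cells had 0.451 and 1.1 CP10k of Ifitm1 and 5.85 and 13.1 CP10k of Ifitm2. Ly6C-high cells had 2.32 and 5.04 CP10k of Ifitm6, and NK1.1+ cells 0.576 and 1.51 CP10k of Ifitm1. In NK1.1+ and Ly6C-low cells the Ifitm1 differences rested largely on 1 cell labelled control each. It held 44 of 47 UMIs in NK1.1+ cells and 116 of 156 in Ly6C-low cells. In B220+ cells 1 cell held 62 of 88 Ifitm1 UMIs labelled depleted, and 1 cell held 45 of 160 labelled control. An Ifitm1 UMI was held by 11.6% and 8.82% of NK1.1+ cells and 9.17% and 11.8% of Ly6C-low cells. The same count of 7 was found by gate in the blood. The share of all genes past 2 fold was not taken by gate, so neither count is a result about the members.

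Microglia, the cells the toxin was meant to remove, had 9.37 CP10k (9.15 to 9.60) of Ifi27l2a under the depleted label and 8.50 CP10k (8.01 to 9.01) under the control label. In the authors' gate for CNS-native myeloid cells it had 8.73 and 8.75 CP10k. In that gate the Ifitm genes were lower under the depleted label, with 2.84 and 5.78 CP10k of Ifitm2, 6.59 and 10.9 CP10k of Ifitm3 and 1.58 and 2.67 CP10k of Ifitm1. In the microglia cluster Ifitm3 had 4.86 and 7.08 CP10k, and Ifitm2 had 2.06 and 3.20 CP10k. Without shared barcodes, Ifitm2 had 0.990 and 2.13 CP10k and passed 2 fold at -1.03, and Ifitm6 had 0.185 and 0.686 CP10k (-1.46). Neutrophil markers went with both genes in the whole cluster. They summed to 112 CP10k with an Ifitm2 UMI and 3.89 without under the depleted label, and 114 and 7.96 under the control label. For Ifitm6 the sums were 228 and 27.1 CP10k, and 194 and 38.6 CP10k. Their part in the differences was not tested.

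Classical monocytes of the naive brain had 15.8 CP10k of Ifi27l2a under the depleted label and 22.4 CP10k under the control label (log2 ratio -0.50), and 29.2 and 36.3 CP10k of Ifitm3. There none of the 36 measured interferon-response genes was lower by 2 fold, and their median was -0.49 against -0.05 over all genes. Shared barcodes made up 62.2% of this cluster. Irf7, a factor that drives interferon transcription, had 4.09 and 8.13 CP10k in these cells. T cells had 9.70 and 12.3 CP10k of Ifi27l2a, and the median of the list was -0.43.

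Neutrophils of the naive brain did not repeat the pattern of the blood. Ifi27l2a had 5.11 CP10k (4.52 to 5.76) under the depleted label and 4.13 CP10k (3.56 to 4.77) under the control label. Ifitm1 had 12.3 and 23.7 CP10k and Ifitm6 had 11.6 and 18.6 CP10k, just short of 2 fold for Ifitm1 at -0.94. The cluster held 56 and 49 cells, and 65.7% of its barcodes were shared. The Ly6C+Ly6G+ gate of the naive brain gave 7.20 and 13.3 CP10k of Ifi27l2a, the opposite direction.

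Naive brain neutrophils rich and poor in granule-gene RNA differed in their Ifitm genes. Cells were split by their summed UMIs of Camp, Ngp and Ltf, granule genes of immature neutrophils, a split chosen after the values were seen. Ifitm6 had 35.4 CP10k in the 37 cells with at least 10 granule UMIs and 1.84 CP10k in the 68 cells with fewer. Ifitm1 went the other way, at 1.12 and 27.8 CP10k, as did Ifitm2 at 10.3 and 24.5 CP10k.

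The same opposition of Ifitm6 and Ifitm1 was found in blood neutrophils and in cluster 23 of the brain with metastases, but not in its cluster 15. In blood neutrophils Ifitm6 had 34.1 CP10k in 23 granule-rich cells and 2.67 CP10k in the other 943, and Ifitm1 had 3.33 and 41.7 CP10k. In cluster 15 of the brain with metastases, led by Camp and Ngp, Ifitm6 had 34.9 and 2.09 CP10k, but Ifitm1 was low in both, at 1.85 and 2.48 CP10k. In cluster 23, led by G0s2 and Retnlg, Ifitm6 had 8.68 CP10k in only 6 granule-rich cells and 3.40 CP10k in 136 others, and Ifitm1 1.18 and 26.9 CP10k. Ifitm3 varied between clusters, with 13.6 and 8.92 CP10k in the naive brain and 14.1 and 13.4 CP10k in the blood. It had 14.9 and 9.64 CP10k in cluster 15 but 7.65 (5.71 to 10.0) and 18.6 (17.9 to 19.2) CP10k in cluster 23.

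**Figure D4:**
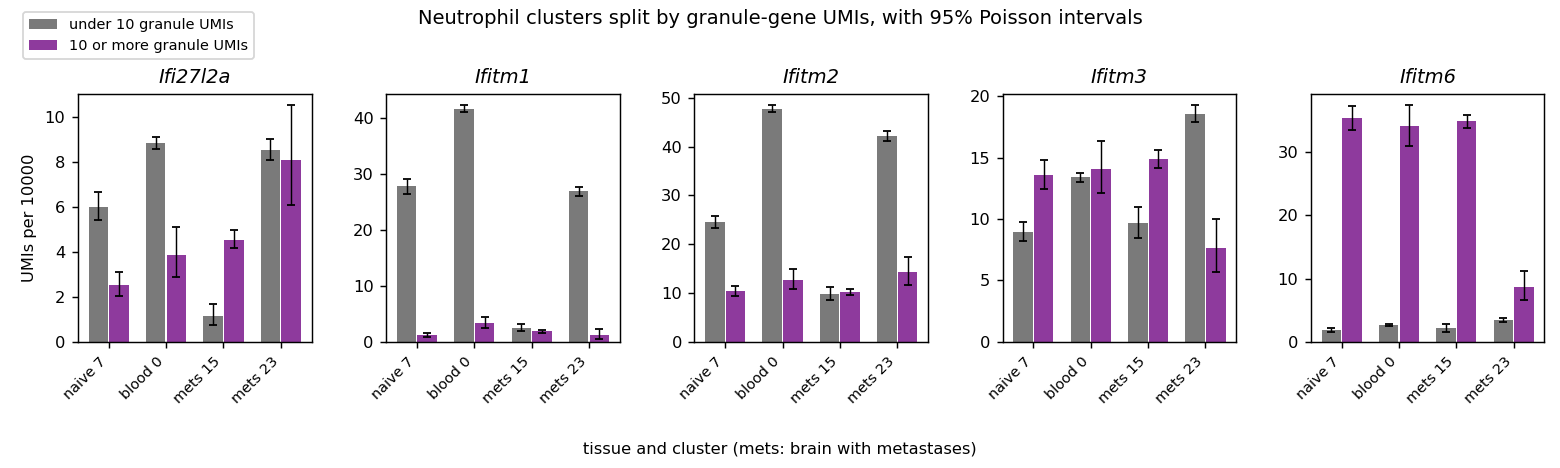
Level of each gene (CP10k, bars from 0, 95% Poisson intervals) in neutrophil-rich clusters, split into cells with under 10 (grey) and at least 10 (purple) UMIs of the granule genes Camp, Ngp and Ltf. Ifitm6 is high in granule-rich cells (35.4 CP10k in the naive brain, 34.1 CP10k in the blood) and Ifitm1 in the others (27.8 and 41.7 CP10k).

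The brain with metastases was then set beside the naive brain, class by class. These values cross 2 matrices that the authors normalized separately, the brain with metastases pools its arms, and the clusters of the 2 tissues were made in different ways. Of 31 levels compared, 11 passed 2 fold, 8 higher and 3 lower in the brain with metastases. The share of all genes past 2 fold in either direction was 2.17% in T cells, 2.03% in NK cells, 14.8% in endothelial cells, 3% in microglia, 13.3% in neutrophils, 6.62% in classical monocytes and 0.98% in nonclassical monocytes, so the counts in endothelial cells and neutrophils stand against a high background.

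T cells had 24.9 CP10k of Ifi27l2a in the brain with metastases (622 cells) and 10.0 CP10k in the naive brain (499 cells), a log2 ratio of 1.31. Against the naive sample labelled control alone, at 12.3 CP10k, it was 1.01, and against that labelled depleted, at 9.70 CP10k, it was 1.35. In the brain with metastases the class joined the clusters led by Cd8b1 (381 cells) and by Tnfrsf4 and Il17a (241 cells). The latter had the higher Ifi27l2a, whereas the 1 naive T cell cluster was led by Cd8b1. The part of this mix in the difference was not tested. Ifitm2 had 1.62 and 0.699 CP10k in T cells (1.1), and without shared barcodes 1.32 and 0.661 CP10k (0.90), under 2 fold. Ifitm1 had 2.71 and 0.140 CP10k (3.55). In the Cd8b1+ T cell cluster, which held most of that Ifitm1, neutrophil markers summed to 81.5 CP10k in cells with an Ifitm1 UMI and 4.73 CP10k in cells without, and their part was not tested.

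Over the interferon-response list the median was 0.55 in T cells, with 1 of 28 genes past 2 fold, against 0.06 over all genes. Isg15 had 5.02 and 2.32 CP10k, and Bst2 had 7.44 and 3.93 CP10k. NK cells did not share this: Ifi27l2a had 2.06 and 2.16 CP10k, and the list's median was -0.08. Ifitm1 in NK cells had 1.04 and 0.212 CP10k (1.86), and the log2 ratio was 0.09 once cells with an unusual number of detected genes were left out.

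Endothelial cells, compared over 526 and 44 cells, had 2.83 and 0.82 CP10k of Ifi27l2a (1.67), 2.28 and 0.398 CP10k of Ifitm1 (2.26) and 33.4 and 16.1 CP10k of Ifitm3 (1.04). Ifitm2 was close, at 11 and 13.2 CP10k. The naive cluster was led by Plvap, Igfbp3 and Esm1, as was cluster 12 of the brain with metastases, where these genes were at 1.66 CP10k for Ifi27l2a, 0.82 CP10k for Ifitm1 and 22.3 CP10k for Ifitm3. The class therefore held other kinds of endothelium in the brain with metastases, and their part in the difference was not tested.

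Microglia had 9.32 CP10k of Ifi27l2a in the brain with metastases and 9.23 CP10k in the naive brain, a log2 ratio of 0.01. Ifitm3 had 4.01 and 5.22 CP10k, and over the interferon-response list the median was -0.20, with none of 18 genes past 2 fold. Ifitm1 had 0.0538 and 1.63 CP10k (-3.49) and Ifitm2 had 0.676 and 2.24 CP10k (-1.59). Neutrophil markers summed to 3.73 CP10k in microglia of the brain with metastases and 55.8 CP10k in those of the naive brain, and their part was not tested. In naive microglia labelled depleted those markers summed to 218 CP10k in the 130 cells with an Ifitm1 UMI and 14.3 CP10k in the 556 without. Without shared barcodes the log2 ratios were -1.64 for Ifitm1 and -0.69 for Ifitm2.

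Classical monocytes had 24.4 and 18.4 CP10k of Ifi27l2a, 53.1 and 32 CP10k of Ifitm3 (0.73), 22.5 and 12.2 CP10k of Ifitm2 (0.87) and 5.35 and 2.87 CP10k of Ifitm6 (0.88). None passed 2 fold, but without shared barcodes Ifitm2 had 22.7 and 10.9 CP10k and did so, at 1.05. Isg15 had 16.2 and 8.36 CP10k, and the list's median was 0.54 over 36 genes. Nonclassical monocytes had 5.19 and 2.93 CP10k of Ifi27l2a and 23 and 14.6 CP10k of Ifitm3, with a list median of 0.37 over 10 genes.

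Neutrophils had 41.0 and 19.1 CP10k of Ifitm2 (1.1), 3.63 and 14.8 CP10k of Ifitm6 (-2.0), 25.8 and 17.5 CP10k of Ifitm1 and 8.52 and 4.66 CP10k of Ifi27l2a (0.86). The named cluster of the brain with metastases held 6 granule-rich cells of 142, that of the naive brain 37 of 105, and the part of this mix was not tested. Without shared barcodes, which left 80 and 36 cells, Ifi27l2a had 10.0 and 2.94 CP10k (1.74) and Ifitm1 had 28.1 and 9.06 CP10k (1.62). The list's median was 0.88, with 8 of 22 genes past 2 fold, against 0.20 over all genes. Isg15 had 4.92 and 0.894 CP10k.

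**Figure D5:**
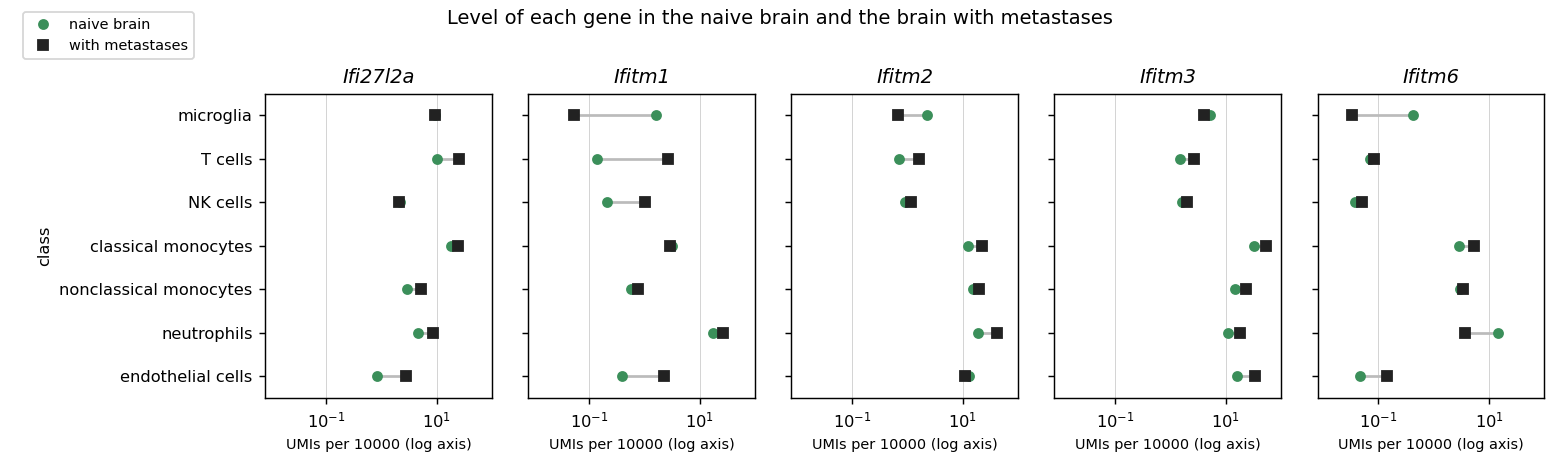
Level of each gene (CP10k, log axis) in the naive brain (green circles) and the brain with metastases (black squares) for 7 classes, each point the pooled cells of a class without replicates. Ifi27l2a is apart in T cells (10.0 and 24.9 CP10k) and together in microglia (9.23 and 9.32 CP10k).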

How the data were processed

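The submitters' processing notes name Cell Ranger 3.1, Seurat 3.1.1 and the mm10 build, with no roles given. The authors deposited 3 RNA matrices on a natural log scale, ln(1 + corrected UMIs), each corrected for depth on its own, and the log was undone here. The undone values were whole within 1e-06. The plan had assumed raw counts, and corrected UMIs took their place, with no count model. The authors also deposited annotation for the naive brain and the blood with raw UMI count, hashtag count, arm, cluster and surface gates as labels, together with a corrected UMI total per cell, a score made by that correction. A further 40 annotation columns were not used. No doublet caller was run, and all deposited cells were kept.

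The members and gene lists were chosen with earlier results of these data known. UMIs were summed by cluster and sample and scaled to 10000. A compared class had at least 30 cells a side. Clusters were named from marker lists, with at least 3 markers at 0.5 CP10k and 2 fold over other cells. The brain with metastases was clustered with scanpy 1.11.5 (2000 variable genes, 30 components, 20 neighbours, Leiden resolution 1), leaving out the members and interferon lists. Members were named in every class, the 4 most abundant genes of a list in a matrix could be named, and so could the 5 genes most like each member by Pearson correlation. Numerical work used numpy 2.4.6, pandas 2.3.3 and scipy 1.17.1. The ratios were tested on simulated data: of 200 genes changed 4 fold, 100% were recovered with 0 unchanged genes called, in blood cluster 0 (2261 genes) and naive brain cluster 3 (3039 genes). The simulated counts were Poisson draws from the pooled cluster, with only abundant genes changed and no variation between cells or mice. They check the arithmetic alone and do not measure the error of the real ratios.

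Alternatives were another pseudocount, filter and fold threshold, means over cells, leaving out shared barcodes, extreme cells or weakly hashed cells, surface gates, and other cluster resolutions.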

Additional observations from a re-analysis of the deposited data

Results flagged for a closer look

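Ifi27l2a in neutrophils went in opposite directions between the labels in the tissues. Its log2 ratio, the sample labelled depleted over that labelled control, was 0.30 for the naive brain but -2.36 for blood. With 1 sample per label and tissue, the difference was not tested. In the naive brain the ratio was 0.70 without the cell with the most UMIs on each side and -0.88 in the Ly6C+Ly6G+ gate, so its direction there was not stable. In the blood it lay between -2.51 and -2.03 over 8 alternatives.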

How the results depend on the processing

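The 3 Ifi27l2a differences of the blood stayed past 2 fold under all 8 alternatives run for them, at -2.54 to -1.98 in nonclassical monocytes and -1.74 to -1.43 in classical monocytes. Members past 2 fold in the naive brain numbered 1, but 0 with a pseudocount of 1, 4 without shared barcodes, 6 at 1.5 fold and 7 by surface gate. In the blood they numbered 4, but 7 without shared barcodes, 13 at 1.5 fold and 7 by surface gate. Between the brain with metastases and the naive brain they numbered 11, and 19 at 1.5 fold. The share of all genes was not taken under these alternatives. Reversed values were Ifitm1 in blood nonclassical monocytes by surface gate, at 0.062, and Ifitm6 in neutrophils of the brain with metastases at Leiden resolution 0.5, at 0.066. Ifitm2 in microglia stayed past 2 fold in 3 of 8 alternatives and was -0.08 at Leiden resolution 2, Ifitm2 in T cells in 4 of 8, and Ifi27l2a in T cells in 7 of 8, at 0.91 with resolution 0.5. Thinning to 2000 UMIs lowered the shares of cells with Ifi27l2a to 28.4% and 54.2% in neutrophils, 34.7% and 69.5% in nonclassical monocytes and 66.7% in classical monocytes labelled depleted. Drawing fewer UMIs from a cell can only lower such a share. A hashtag count of at least 200, an alternative chosen after seeing the data, kept all 4 blood differences and gave 6 in all. No paired analysis was possible because each tissue had 1 sample per label. No replicates could be left out for the same reason, so counting intervals understate the error between mice. At this depth, levels near 0.05 CP10k rest on few molecules.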
